A study of Mus musculus with 16 samples.

Results

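The narrow H3K4me3 regions shared by all lines were the autosomal regions at most 800 bp wide that had a peak in each of 3 deposited lists, 1 list for each mouse line. They were chosen by merging peaks that share at least 1 bp on chromosomes 1 to 19 and taking the regions with a peak in every list. Of 59204 merged regions, 34977 had a peak in every list, and 3684 of these were at most 800 bp wide, which is 10.5% (95% Wilson interval 10.2 to 10.9). Width and presence in the lists therefore chose the members, and both depend on how strongly a peak was enriched. Widths, fold enrichments and presence are given below as descriptions, with no test.

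Trimethylation of lysine 4 on histone H3 marks the nucleosomes beside active promoters, where it commonly spreads over several nucleosomes. In meiotic cells the methyltransferase PRDM9 places the same mark at the sites bound by its zinc fingers, on the few nucleosomes around the bound motif, and these sites become recombination hotspots. Weak promoters, some enhancers and PRDM9 sites can all give narrow peaks of this mark, so a narrow width does not tell which kind of site it is.

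The samples were whole testes of mice aged 13 days post-partum, an age at which the tubules hold spermatogonia, early spermatocytes and somatic cells. B6 mice were C57BL/6JOlaHsd without a transgene. The B6-TgWT mice were C57BL/6J-Tg(RP23-159N6*)43Bdm and the B6-TgYF mice C57BL/6JRj-Tg(RP23-159N6*)23Bdm, so the lines differed in substrain as well as in transgene. As far as the study is known, that transgene is a modified bacterial artificial chromosome that carries Prdm9 with another binding specificity, intact in WT and mutated in the catalytic domain in YF. All 3 lines keep their own Prdm9, and each transgene was represented by 1 line. Every line had 2 H3K4me3 libraries and 1 input, but 1 list for both libraries, so no value below has a spread between replicates and no test between lines was possible. Intervals cover counting error over regions only, and regions are not replicates. In whole testis, fewer cells with the mark and less mark per cell cannot be told apart.

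The lists held 50013 (B6), 46631 (B6-TgWT) and 41558 (B6-TgYF) autosomal peaks. Read depth is unknown, since the lists hold no read counts. No sequence or gene annotation of the build of the lists, mm9, was used here, so the regions are given by position and not by gene.

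The members were mostly single peaks that overlapped over most of their extent in the lines. Their merged widths ran from 223 to 800 bp with a median of 663 bp, against a median of 1593 bp for the 31293 wider shared regions. Exactly 1 peak per list was found in 3673 of the 3684 (99.7%), against 94.2% of the wider shared regions. The stretch common to the outermost peak bounds of the 3 lists made up a median of 80.1% of the merged width, with 25.5% as the lowest value. It made up a larger 84.6% in the wider shared regions. Where a list had several peaks in a region, the gaps between them counted as part of this stretch. Starts spread over a median of 51 bp between the lists and ends over 51 bp, while starts of the wider shared regions spread over a median of 103 bp. The limit on width bounds how many peaks of a list fit in a member and how far its starts lie apart. Part of the difference in peak number and in spread of starts thus follows from the rule. Single peaks had a median width of 621 bp (B6), 546 bp (B6-TgWT) and 580 bp (B6-TgYF). The B6 peak was the widest of the 3 in 62.2% of the members and the B6-TgWT peak the narrowest in 56.3%. Much the same held for the wider shared regions, at 59.7% and 57.8%, so this order of the lists was not confined to narrow regions.

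**Figure D1:**
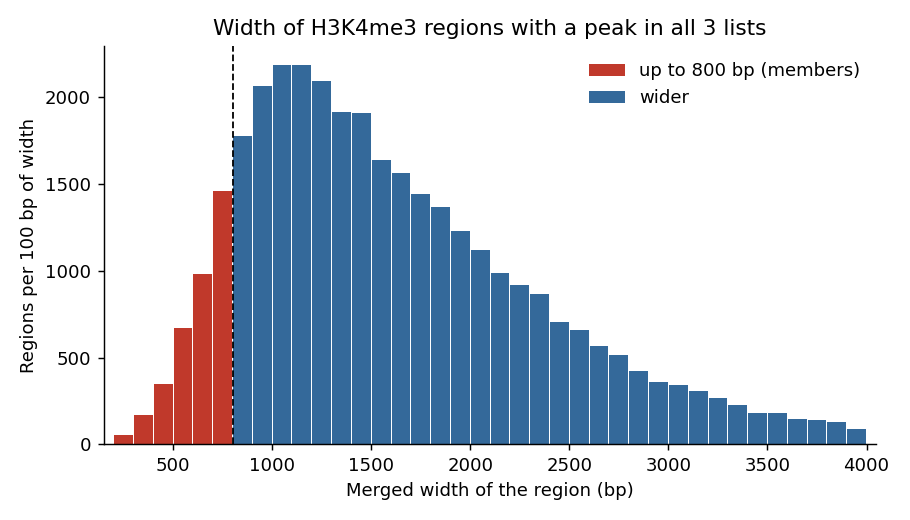
Number of regions with a peak in all 3 lists per 100 bp of merged width, up to 4 kb, with members in red and wider regions in blue. The dashed line is the limit of 800 bp, which lies on the rising flank of a single-humped distribution.

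The limit of 800 bp did not fall in a gap of the width distribution. Numbers per 100 bp of width rose through the limit, as the plot of widths shows. The regions nearest to the limit on either side, with ties broken by position, are given as examples. Just inside it, chr2:171018772-171019571 was 800 bp wide, with fold enrichments over background of 6.25 (B6), 5.01 (B6-TgWT) and 4.26 (B6-TgYF). At the same width, chr3:75006398-75007197 had 8.53, 4.23 and 5.44, and chr6:142620724-142621523 had 5.44, 3.14 and 6.2, in the same order of lists. Just outside it, at 801 bp, chr2:17854042-17854842 had 5.95, 3.76 and 4.35. The next were chr5:117345147-117345947 with 7.06, 4.7 and 3.86, and chr7:52706648-52707448 with 12.28, 7.08 and 6.78. At the other extreme, chr2:156218570-156218792 was the narrowest member at 223 bp, with peak widths of 223, 218 and 217 bp and fold enrichments of 9.12, 8.04 and 8.93. It was followed by chr9:88753716-88753959 at 244 bp (4.56, 3.8 and 4.46) and chr17:17371777-17372021 at 245 bp (5.37, 3.89 and 4.22).

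Most regions of narrow merged width were not shared. Of 15481 regions up to 800 bp wide, 3684 had a peak in every list (23.8%, interval 23.1 to 24.5), 3136 in 2 lists and 8661 in 1 list. The share in every list was 8.40% for widths up to 400 bp, 18.1% for those over 400 and up to 600 bp, and 34.0% for those over 600 and up to 800 bp, against 85.5% of regions over 1500 bp. Merged width can only grow as peaks of more lists are joined, so part of this rise follows from the merging. Counted by peak, the members held 24.8% of the 14837 narrow B6 peaks, 34.0% of the 10852 narrow B6-TgWT peaks and 34.0% of the 10847 narrow B6-TgYF peaks. The rest fell out differently by list. In B6, 66.7% of the narrow peaks lay in regions missing from some list, while in B6-TgWT 40.4% lay inside wider shared regions and 25.6% in regions missing from some list. In B6-TgYF 29.9% lay inside wider shared regions and 36.1% in regions missing from some list. Counted by peak, most narrow peaks of both transgenic lists thus lay in shared regions, unlike those of B6.

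Presence in every list went with strength in B6. Among narrow regions that held a B6 peak, strength was taken as the percentile of the authors' fold enrichment within the autosomal B6 list. Of those between percentiles 10 and 20, 193 of 3123 were shared (6.18%), between 30 and 40 it was 806 of 1788 (45.1%), and between 50 and 60 it was 706 of 747 (94.5%, interval 92.6 to 95.9). From percentile 60 to 70, 348 of 350 were shared, and all 94 between 70 and 80 and all 11 between 80 and 90. The narrow B6 regions that were missing elsewhere were thus the weak ones, although a call in each list itself needs strength.

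**Figure D2:**
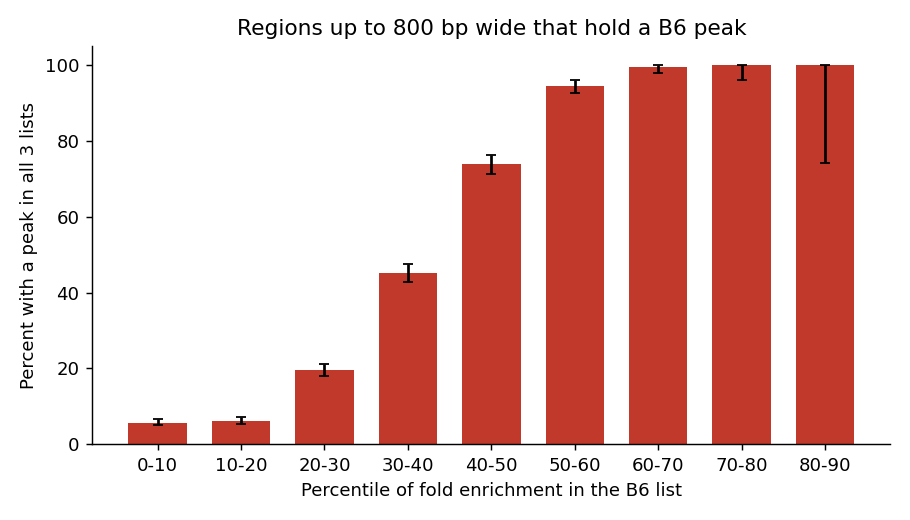
Share of regions up to 800 bp wide with a B6 peak that also had a peak in both transgenic lists, by percentile of fold enrichment in the B6 list, with 95% Wilson intervals as bars. The share climbs from 5.72% in the weakest bin to 94.5% between percentiles 50 and 60, and the last bin holds only 11 regions.

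The members were of low to middling strength in each list. Their fold enrichment over background, the authors' own value at the peak, had a B6 median of 6.54, with 5% to 95% of the regions between 3.61 and 12.3. The B6-TgWT median was 4.58 (3.38 to 8.41) and the B6-TgYF median 5.03 (3.35 to 9.59). The wider shared regions, each represented by its strongest peak per list, had medians of 13.2, 9.39 and 10.6. Narrow regions of 1 or 2 lists had medians of 3.92, 4.06 and 3.88, so the members lay between both sets in every list. Of the 3684 members, 0 lay in the strongest 10% of any of the lists, while the weakest 10% held 5.40% of them (B6), 18.7% (B6-TgWT) and 14.1% (B6-TgYF). In the stronger 50% of all 3 lists there were 281 members (7.63%, interval 6.81 to 8.53), against 57.3% of the wider shared regions. A further 2429 members (65.9%) were in the stronger 50% of none.

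**Figure D3:**
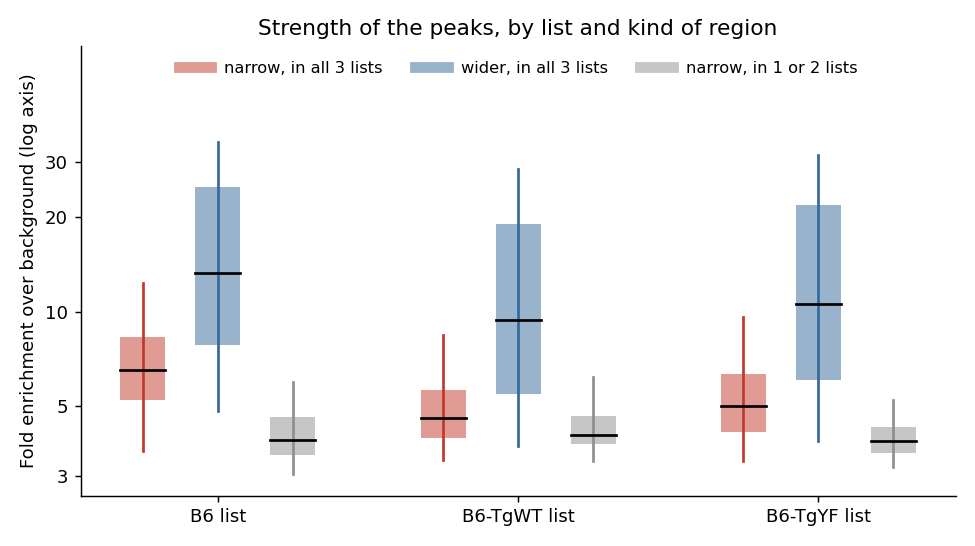
Fold enrichment over background (log axis) by list for narrow shared regions (red), wider shared regions (blue) and narrow regions of 1 or 2 lists (grey). Boxes span 25% to 75% of the regions, lines 5% to 95%, and black bars are medians, with members between the other sets in every list.

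Width within the members went with little difference in strength. Members up to 400 bp wide (222 of them) had medians of 6.25 (B6), 4.33 (B6-TgWT) and 4.80 (B6-TgYF). The 1458 members over 700 bp had 6.71, 4.67 and 5.13. Both ranges overlapped widely, since 5% to 95% of the narrowest group spanned 4.05 to 9.99 in B6.

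Members stood higher in the B6 list than in the transgenic ones. The median percentile of their fold enrichment was 42.3 (B6), 24.5 (B6-TgWT) and 29.5 (B6-TgYF). With lists of equal length the medians were 36.3, 22.7 and 34.5, so the distance between B6 and B6-TgYF shrank while B6-TgWT stayed lowest. The fold enrichment itself was highest in B6 in 77.9% of the members and lowest in B6-TgWT in 57.5%. Among the wider shared regions the figures were 73.2% and 62.2%. By percentile, B6 was highest in 74.8% of the members and 61.8% of the wider shared regions. B6-TgWT was lowest by percentile in 52.8% of the members. In the wider shared regions B6-TgYF was most often lowest, in 44.9% against 38.4% for B6-TgWT. Fold enrichments and ranks of separate lists depend on the depth and background of each library and show no change by themselves. Ranks also depend on which other peaks a list holds.

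Strength ranked only partly alike between lines within the members. Spearman's rho across the 3684 regions was 0.562 between B6 and B6-TgWT and 0.631 between B6 and B6-TgYF. Between both transgenic lists it was 0.559. Across the 31293 wider shared regions it was 0.899, 0.916 and 0.914. The members span a short range of strength, and over the same range of mean percentile (12.4 to 60.0) the values came close together. They were 0.454, 0.534 and 0.464 for 3314 members and 0.455, 0.568 and 0.491 for 14030 wider regions. These values are descriptions across regions, which share their libraries.

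The strongest members, by mean percentile over the lists, were adjacent to other shared regions. First was chr5:37187051-37187573 (523 bp), with 24.8 (B6), 16.7 (B6-TgWT) and 26.3 (B6-TgYF) as fold enrichments. It lay 239 bp from a wider shared region. On chromosome 4, chr4:155608758-155609406 had 26.9, 17.7 and 22.2 and lay 62 bp from a wider shared region. On the same chromosome, chr4:155571826-155572401 had 26.4, 16.8 and 20.3, with a gap of 173 bp to another one.

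Other strong members had a narrow shared neighbour. On chromosome 12, chr12:106102510-106103248 (23.3, 18.2 and 20.4 in B6, B6-TgWT and B6-TgYF) and chr12:85441441-85442062 (22.4, 18.8 and 17.6) lay 127 and 200 bp from a second narrow shared region. The same held for chr2:165317859-165318615 (18.6, 16.6 and 20.5) with a gap of 149 bp and chr11:119385795-119386505 (19.9, 16.4 and 18.8) with a gap of 87 bp. So 7 of the 8 strongest lay within 1 kb of another region, 4 of them beside a narrow and 3 beside a wider shared one. The exception was chr7:134519175-134519777 (22.4, 16.7 and 17.8), whose nearest region was 10412 bp away.

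Most members were not this close to another region, with a median gap of 4580 bp against 7398 bp for the wider shared regions, but short gaps were more frequent among them. Of all 3684, 859 lay within 200 bp of another region (23.3%, interval 22.0 to 24.7) and 1168 within 1 kb (31.7%, interval 30.2 to 33.2). For wider shared regions the shares were 6.84% and 13.6%, and for narrow regions of 1 or 2 lists 15.3% and 23.6%. Members over 100 kb from any region numbered 86 (2.33%), against 1.30% of the wider shared ones. The share was higher in regions of 1 or 2 lists, at 3.96% of the narrow and 4.15% of the wider ones. The excess lay at the shortest gaps. There were 454 gaps up to 100 bp and 405 from 100 to 200 bp, but 119 from 200 to 300 bp and 20 from 500 to 600 bp. The gaps from 1000 to 2000 bp numbered 205, about as many for each 100 bp as from 500 to 600 bp. Within each single list the smallest gap between neighbouring peaks was 51 bp, so shorter gaps between regions arose only from merging the lists.

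**Figure D4:**
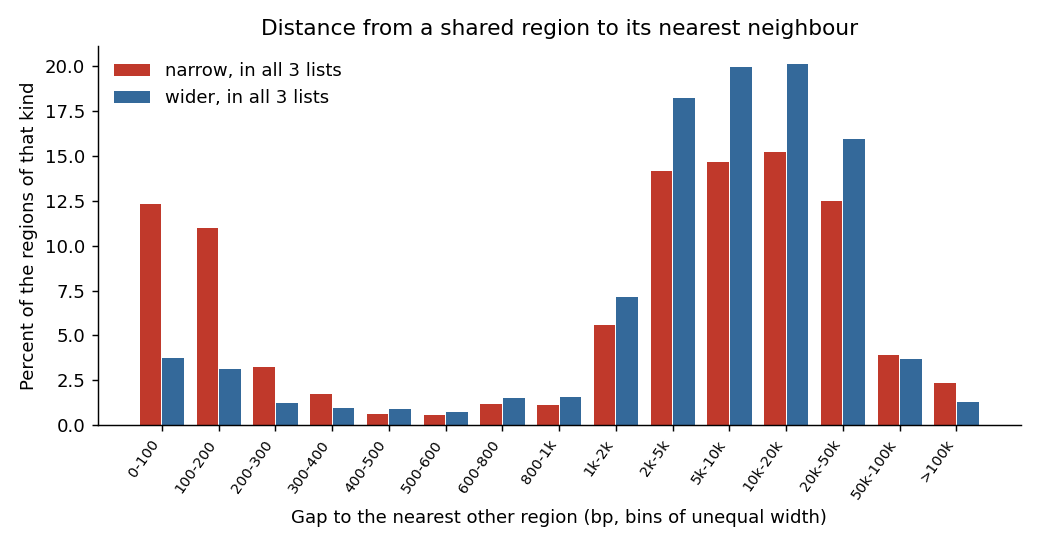
Percent of narrow (red) and wider (blue) shared regions by gap to the nearest other region, in bins of unequal width. Members show an extra group below 200 bp, with 12.3% up to 100 bp and 11.0% from 100 to 200 bp. Wider shared regions show a smaller one, with 3.75% and 3.10%.

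Close members mostly had the close region on 1 side, since 78 of 1168 had regions within 1 kb on both. The nearest region of the 1168 members within 1 kb was a wider shared region in 38.5% and another member in 25.6%. It was a narrow region of 1 or 2 lists in 31.2% and a wider region of 1 or 2 lists in 4.62%. For the 2516 members farther away, the shares were 51.9%, 6.00%, 22.02% and 20.03% in the same order. Over all 59204 regions the numbers of these kinds were 31293, 3684, 11797 and 12430, so the distant neighbours were close to that make-up. Members and narrow regions of 1 or 2 lists were thus more frequent as close neighbours than as distant ones, and both wider kinds less frequent. Members that were each other's nearest region were counted from both sides. The nearest region of the 1168 lay at the higher coordinate in 49.4% (interval 46.5 to 52.3). For members within 200 bp the median gap was 97 bp, and the median distance between the member's summit and its neighbour's was 539 bp (B6), 604 bp (B6-TgWT) and 574 bp (B6-TgYF). The neighbour had the higher fold enrichment in 50.9% of 837 such cases with a B6 peak, 64.9% of 593 in B6-TgWT and 61.7% of 666 in B6-TgYF. Neighbours without a peak in a list were left out of its share, so the shares rest on different neighbours and are not comparable between lists. Over all 859 members within 200 bp, the neighbour was both called and stronger in 426 (B6), 385 (B6-TgWT) and 411 (B6-TgYF).

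Closeness went with narrowness and with strength. The median gap was 242 bp for members up to 400 bp wide, 625 bp for those over 400 and up to 500 bp, and 6235 bp for those over 700 bp. Members within 1 kb of another region had median fold enrichments of 6.80 (B6), 4.74 (B6-TgWT) and 5.19 (B6-TgYF). Those at 5 to 20 kb had 6.33, 4.50 and 4.95, a difference far smaller than the range within each group. By mean percentile of fold enrichment, the share of members within 1 kb was 25.2% between percentiles 10 and 20, 34.8% between 40 and 50, and 61.1% (22 of 36, interval 44.9 to 75.2) between 70 and 80. Among wider shared regions of the same strength it was 12.4%, 14.1% and 17.6%. Under the limit on width, a domain listed as several pieces would enter as narrow regions. Whether close members are such pieces was not tested.

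Joining everything across gaps of up to 200 bp left 2825 members (76.7%) with no partner. The runs of regions that took in the other members had a median span of 1490 bp, past the limit of 800 bp. With such gaps closed, the share within 5 kb of another region fell from 51.4% to 36.5%, a setting chosen after seeing the data. Closing the gaps removes every neighbour within 200 bp, so part of this fall follows from the setting. The smallest gap was 1 bp, between chr3:52647643-52648273 (fold enrichments of 7.28, 4.58 and 4.88) and a narrow region held by 1 list. Among close pairs of members, 3 are named here. On chromosome 17, chr17:29896710-29897408 and chr17:29897411-29898032 were 2 bp apart, with fold enrichments of 12.1 and 2.70 (B6), 5.96 and 4.15 (B6-TgWT) and 6.93 and 4.13 (B6-TgYF). At chr8:99687522-99688233 and chr8:99688285-99688882 the gap was 51 bp, with 8.60 and 6.84 in B6. At chr3:9333987-9334580 and chr3:9334634-9335103 it was 53 bp, with 15.8 and 8.97 (B6), 4.50 and 4.58 (B6-TgWT) and 11.6 and 6.70 (B6-TgYF). The first of that pair was thus the stronger one in B6 and B6-TgYF, while both had nearly the same value in B6-TgWT.

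Other members stood far from everything. The most isolated, chr14:6093132-6093501 (370 bp, fold enrichments of 7.21, 4.75 and 6.04), had its nearest region 2512656 bp away. Next were chr1:27500106-27500417, at 691217 bp, with 3.60, 3.89 and 3.80, and chr12:19181762-19182109, at 527430 bp, with 7.65, 5.27 and 6.12. All 3 were under 400 bp wide. The 86 members over 100 kb from another region had a median width of 604 bp, below the 692 bp of those at 5 to 20 kb, and nearly the same median fold enrichments (6.25, 4.54 and 4.70).

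Peak summits of the 3 lists nearly coincided in most members. The distance from the lowest to the highest of the 3 summits had a median of 54 bp and was at most 100 bp in 2856 members (77.5%, interval 76.1 to 78.8), against 66.7% of the wider shared regions. A narrow region bounds how far its summits can lie apart, so part of this follows from the rule: as a percent of the width, the median spread was 8.54% in members and 4.03% in wider regions. By pairs of lists, the median summit distance was 28 bp between B6 and B6-TgWT, 27 bp between B6 and B6-TgYF, and 32 bp between both transgenic lists. The share within 100 bp rose with strength, from 68.5% of members between mean percentiles 10 and 20 to 90.3% between 60 and 70. Summits lay off the middle of the region by a median of 10.7% of its width in each list.

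**Figure D5:**
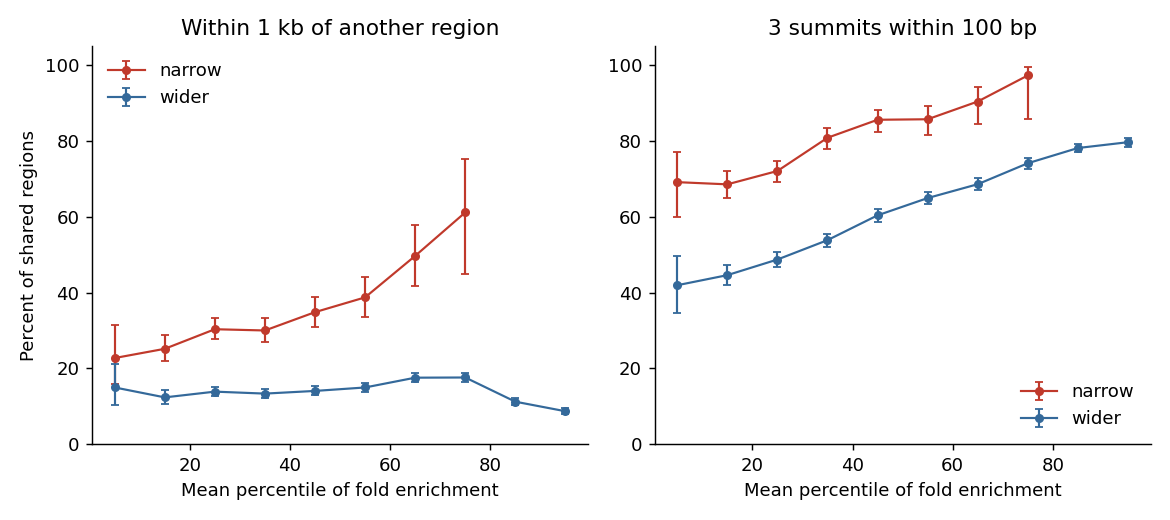
Percent of narrow (red) and wider (blue) shared regions within 1 kb of another region (left) and with the 3 summits within 100 bp (right), by mean percentile of fold enrichment over the lists, for bins of at least 20 regions, with 95% Wilson intervals. Both shares were higher for members in every bin, reaching 61.1% and 97.2% of the 36 members between percentiles 70 and 80.

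At 8 members all summits fell on 1 base. Among them, chr3:40698274-40698703 had its summit at 40698412 in every list, with fold enrichments of 13.8, 9.04 and 13.1. The others named by the rule were chr4:147113137-147113415 with 10.1, 8.39 and 7.18 and chr7:48575644-48576236 with 7.57, 6.05 and 7.36. The widest spreads were 396 bp at chr1:78196700-78197495 and 394 bp at chr13:94428298-94429094, where the B6-TgWT summit stood apart from the other lists. At chr13:21882398-21883188 the spread was 386 bp, at chr17:48420632-48421396 it was 370 bp and at chr3:52426489-52427263 it was 366 bp. The member on chromosome 13 with 386 bp held 4 peaks, so a list had several there and its strongest gave the summit. Fold enrichments at these 5 did not pass 7.94 in any list.

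Single members stood much higher in 1 list than in the others. In B6, chr17:85585471-85586187 was at percentile 53.5 (fold enrichment 8.38) but at 0.174 in B6-TgWT (2.85) and 2.95 in B6-TgYF (3.35). Similar were chr9:31411355-31412114 (8.33 in B6, 3.03 and 3.49 in the transgenic lists) and chr6:34282064-34282665 (7.84, 3.43 and 3.11). The reverse, with B6 low, was seen at chr6:31883666-31884322 (3.17, 6.51 and 5.22 for B6, B6-TgWT and B6-TgYF) and chr3:94909012-94909681 (2.88, 5.96 and 4.54). It was also seen at chr18:5426598-5427101 (2.80, 5.64 and 5.46).

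In B6-TgWT, chr10:59372092-59372654 reached a fold enrichment of 11.6, percentile 70.3, beside 5.44 in B6 and 4.88 in B6-TgYF. There were also chr6:99900392-99901110 with 5.95 against 3.19 and 3.44, and chr3:102529729-102530435 with 7.22 against 4.85 and 3.72. Low in B6-TgWT were chr8:85871811-85872478 (12.2, 3.48 and 10.1 for B6, B6-TgWT and B6-TgYF) and chr11:106191281-106191982 (9.56, 3.43 and 9.76). The third of these was chr2:148660602-148661371 (8.97, 2.48 and 8.60). At these 3 the B6 and B6-TgYF values were close to each other and far above the B6-TgWT value.

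In B6-TgYF, chr9:73039943-73040690 had a fold enrichment of 7.25 beside 3.16 in B6 and 2.98 in B6-TgWT. It was followed by chr3:116608674-116609319 (8.41 against 4.79 and 3.09) and chr2:69921572-69922209 (8.99 against 5.75 and 2.91). Low in B6-TgYF were chr6:70755608-70756338 (3.45 against 8.69 and 8.90), chr6:93395286-93396054 (2.89 against 7.31 and 7.18) and chr8:73965787-73966462 (3.20 against 8.07 and 6.14). Such members were picked as extremes of 3684 from 1 list per line, so they describe these lists and are not shown to differ between the lines. Over all members the gap between the highest and the lowest percentile had a median of 20.6, against 12.5 in the wider shared regions, which are stronger.

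The weakest members combined a low fold enrichment with a −log10 p well above the lowest of the lists. At chr11:3033360-3033777 the fold enrichments were 1.54, 1.58 and 1.68, with −log10 p of 19.4, 18.0 and 25.1 in the same order. Close to it, chr11:3098907-3099334 had 1.76, 1.78 and 2.03. On other chromosomes, chr6:115972060-115972468 had 2.11, 2.34 and 2.10, and chr13:120283762-120284322 had 2.14, 1.93 and 2.48. These 4 were the only members under 2.5 in every list, a bound chosen after the values were seen, and 1 of the 31293 wider shared regions was under it. Each of the 4 had as nearest region a narrow one held by 1 list alone, and their 3 summits lay within 6 bp. Next in strength, chr10:80922048-80922555 had fold enrichments of 3.08, 3.36 and 3.23 but −log10 p of only 15.1, 12.3 and 11.9. Input coverage at these sites was not analysed here.

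Members were spread over all autosomes in near proportion to the shared regions. The narrow share of shared regions ran from 8.62% on chromosome 4 (interval 7.52 to 9.86) to 12.8% on chromosome 18 (interval 11.0 to 14.9), around 10.5% over all. Along the chromosomes, from the first to the last region, it was 11.1% in the proximal, 10.5% in the middle and 10.2% in the distal part of equal length.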

How the data were processed

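Per the labels, H3K4me3 ChIP and input libraries of whole testis were grouped by line. For each line the authors deposited 1 peak list, which the labels give for its ChIP libraries. The file name of the B6 list carries another day number than the age in its labels. The submitters' processing notes give mm9 as the build and name CASAVA, BWA, Bowtie2 and MACS2, without versions or roles. The cutoff and the way replicates were combined were not given in the sources used here. The lists have 10 columns and no header and were read in the column order that MACS uses. Fold enrichment, a ratio to background, was deposited for each peak. The deposited −log10 p and −log10 q are likewise the authors' values, and the deposited score equalled 10 times −log10 p, truncated. The lists began at −log10 p of 11 for B6 and B6-TgYF and 12 for B6-TgWT.

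Peaks sharing at least 1 bp were merged. Where a list had several peaks in a region, the strongest stood for it. Percentiles are ranks of fold enrichment within a list's autosomal peaks, and the gap is the number of bases to the nearest other region of any kind. Coordinates count from 1. The regions named are extremes of mean percentile, width, summit spread, list difference and gap, 3 to 8 of each, by a fixed rule. The members and lists were chosen with earlier results of these data known. Merging was tested on simulated sites that lay far apart, with at most 1 peak per list at each. Crowded regions and several peaks of a list in a region were thus not tried by these sites. The gene table and promoter sequences at hand are of GRCm38 and were not used, so no sequence is shown. DMC1 libraries were not analysed here. Tables were made with pandas 2.3.3 and numpy 2.4.6 in Python 3.11.15, intervals with statsmodels 0.14.6, correlations with scipy 1.17.1 and figures with matplotlib 3.10.9.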

Additional observations from a re-analysis of the deposited data

How the results depend on the processing

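Of 129 alternatives over 15 values, 67 left the value within its interval, or a count within 1.5 times, and 62 did not. With a width limit of 600 bp there were 1244 members, 5.79% of them in the stronger 50% of all 3 lists, 86.1% with summits within 100 bp and 61.2% within 5 kb of another region. A limit of 1000 bp gave 7527, 10.7%, 72.6% and 46.4%. Lists of equal length gave 2678 members against 3684, a count still within 1.5 times. Of these, 80.1% had summits within 100 bp and 47.9% lay within 5 kb. Counting neighbours within 1 kb gave 31.7% and within 20 kb 81.3%. Joining gaps of up to 200 bp, added after seeing the data, gave 2846 members. Of them, 6.18% were in the stronger 50% of all 3 lists and 36.5% lay within 5 kb. By construction these settings change which regions enter or what counts as near. Sequence content and overlap with gene starts were not run, since no mm9 genome or annotation was used here. No paired analysis was possible because the lists keep no replicates apart, and for the same reason no replicate could be left out. The unknown read depth limits every statement that a list lacks a peak.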

Other observations

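Chromosome X, left out of the counts above, had 803 regions with a peak in every list, of which 74 were at most 800 bp wide (9.22%, interval 7.40 to 11.4), near the 10.5% of the autosomes.

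In 4 places, 3 members followed each other with gaps of at most 1 kb. From 179912697 to 179914869 on chromosome 1, a stretch of 2173 bp, the 3 members had fold enrichments of 12.4, 6.03 and 5.66 in B6 and 8.27, 4.13 and 4.63 in B6-TgYF. Further along the same chromosome, from 180117097 to 180119175, the values were 6.69, 5.59 and 10.8 in B6 and 4.54, 5.87 and 5.79 in B6-TgYF. On chromosome 7, from 29996313 to 29999125, a wider shared region of 1015 bp (14.6 in B6) was followed by members with 8.60, 6.62 and 9.63. On chromosome 18, from 37105548 to 37108215, the members had 7.21, 4.48 and 7.97 in B6, and a region missing from the B6-TgYF list lay between the first and the second.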
